A study of Mus musculus with 6 samples.

Results

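Interferon-gamma (Ifng) and 6 genes that help CD4 T cells make it were followed in mouse T cells with and without an altered type I interferon receptor. The group was chosen by name as the rows for Tbx21, Ifng, Il12rb1, Il12rb2, Eomes, Hopx and Runx3, and all 7 were found among the 24493 gene symbols of the table. The cells were naive CD4 T cells from spleen that had been driven towards regulatory T (Treg) cells in culture, and the 6 mRNA libraries fell into 3 wild-type (WT) and 3 Ifnar1-SA libraries. In published work Ifnar1-SA is a knock-in allele in which an alanine takes the place of a serine needed for degradation of the interferon receptor chain IFNAR1. Both genotypes carry the same labels for tissue, starting cell and culture. The labels name no interferon or other treatment and do not give the age or sex of the mice, the polarising cytokines or the time in culture. Whether the replicates of a genotype came from separate mice is not stated. The p-values therefore reflect only how far these samples spread, which may be technical.

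T helper 1 (Th1) cells are the CD4 T cells that secrete interferon-gamma against intracellular microbes. Interleukin-12 binds a receptor of the chains IL-12Rβ1 and IL-12Rβ2 and signals through JAK2, TYK2 and STAT4, and interferon-gamma signals through a receptor of its own. Both routes raise T-bet, the product of Tbx21, which with RUNX3 opens the Ifng gene and silences Il4. Treg cultures normally hold this programme down, and type I interferon can also act on it in T cells.

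The unit was TPM, a share of all transcripts corrected for gene length, so levels of different genes can be compared while the number of reads behind them is unknown. In bulk RNA, fewer cells that express a gene and less RNA per cell cannot be told apart. Cd4 bore out the label of CD4 T cells, while Foxp3 did not bear out that of Treg cells and the other Treg markers were divided. Cd4 was at 107.8 to 123.9 TPM, while Foxp3, which defines Treg cells, was at 0.276 to 1.82 TPM. Of the other listed Treg markers, Il2ra (359 to 444 TPM), Ctla4 (482 to 876 TPM) and Tnfrsf18 (2371 to 3238 TPM) were high. Ikzf2 (0.792 to 1.97 TPM), Itgae (0.669 to 1.42 TPM), Lrrc32 (1.10 to 2.73 TPM) and Nrp1 (1.07 to 4.08 TPM) were low. Ifnar1, the altered gene, was at 24.0, 41.9 and 27.3 TPM across WT libraries and 28.0, 25.3 and 21.8 TPM in the Ifnar1-SA libraries, and a gene level does not check a changed codon. WT 2 and Ifnar1-SA 1 stood apart from the other libraries: the median level of the genes tested was 9.82 and 9.56 TPM there and 7.42 to 8.38 TPM in the other 4. Differences of the members and of their ratios are also given without this pair.

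The promoters of the genes are shown because the factors of this pathway bind DNA and some members ran together over the libraries. RefSeq (GRCm38.p6) gave 8 promoter windows for 6 of the 7 genes: Tbx21, Ifng, Il12rb2, Eomes, Hopx and Runx3. The 250 bases before the start site of each were searched on both strands for 6 motifs. These were the gamma-activated site (TTCNNNGAA), the interferon-stimulated response element (GAAA, any 2 bases, GAAA), a T-box site (GGTGTGA), the RUNX core (TGTGGT), AP-1 (TGANTCA) and the NFAT core (GGAAA). The 4 windows that held one of the first 5 motifs are printed 5′ to 3′ with those matches in capitals.
Ifng (chr10:118440796-118441045, plus strand): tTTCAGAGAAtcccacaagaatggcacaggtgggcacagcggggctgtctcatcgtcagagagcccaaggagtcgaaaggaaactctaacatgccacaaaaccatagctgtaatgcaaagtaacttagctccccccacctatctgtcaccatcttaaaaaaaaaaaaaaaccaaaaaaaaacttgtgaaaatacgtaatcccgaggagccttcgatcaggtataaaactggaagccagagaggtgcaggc
Il12rb2 (chr6:67376189-67376438, minus strand): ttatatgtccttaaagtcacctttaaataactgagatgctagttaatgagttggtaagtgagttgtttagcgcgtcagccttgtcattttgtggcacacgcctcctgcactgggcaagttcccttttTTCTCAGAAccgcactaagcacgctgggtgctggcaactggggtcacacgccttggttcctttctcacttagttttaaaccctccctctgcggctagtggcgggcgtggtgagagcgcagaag
Runx3 (chr4:135120395-135120644, plus strand): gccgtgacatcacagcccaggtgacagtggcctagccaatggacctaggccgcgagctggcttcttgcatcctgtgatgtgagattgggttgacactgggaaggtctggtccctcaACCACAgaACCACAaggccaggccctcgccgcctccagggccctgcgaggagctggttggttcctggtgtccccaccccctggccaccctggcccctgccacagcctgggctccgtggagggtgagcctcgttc
Eomes (chr9:118477939-118478188, plus strand): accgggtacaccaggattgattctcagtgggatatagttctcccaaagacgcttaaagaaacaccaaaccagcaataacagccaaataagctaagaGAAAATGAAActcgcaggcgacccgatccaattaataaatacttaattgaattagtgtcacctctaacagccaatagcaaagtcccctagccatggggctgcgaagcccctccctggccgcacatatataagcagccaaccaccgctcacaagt

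The gamma-activated site lay 249 to 241 bases before the Ifng start and 123 to 115 bases before the Il12rb2 start. It was present in 7.02% of all 32851 windows. The Runx3 window printed held the RUNX core 2 times on the opposite strand, so that the printed strand reads ACCACA, at 134 to 129 and at 126 to 121 bases before the start, and 14% of all windows held it. Eomes held the interferon-stimulated response element 154 to 145 bases before its start, as did 2.98% of all windows. The T-box site (3.33% of all windows) and AP-1 (6.75%) were in none of the 8 windows. The NFAT core was in 4 of the 8, those of Tbx21, Ifng and Hopx, against 55.6% of all. A match is a string of letters and not a shown binding site, and a missing match says only that these letters are not in this window.

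None of the 7 genes differed between the genotypes beyond the spread of the libraries. The main test was limma on log2(TPM + 1) over the 12141 genes that averaged 1 TPM or more, which 6 of the 7 genes passed and Eomes did not. Of these 6 genes 0 passed an adjusted p of 0.05 and 0 had an unadjusted p under 0.05 (limma), and the adjusted p was 0.9997 for each. Over all genes tested 0.0165% were called higher and 0.0412% lower in Ifnar1-SA. These 7 called genes were all microRNA genes. At an unadjusted p under 0.05 the shares were 1.44% and 1.68%. The libraries of the genotypes overlapped for all 7 members, while 1.97% of all genes tested lay wholly higher and 3.80% wholly lower in Ifnar1-SA. With 3 against 3 libraries the exact permutation test, two-sided, cannot give a p below 0.1.

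**Figure D1:**
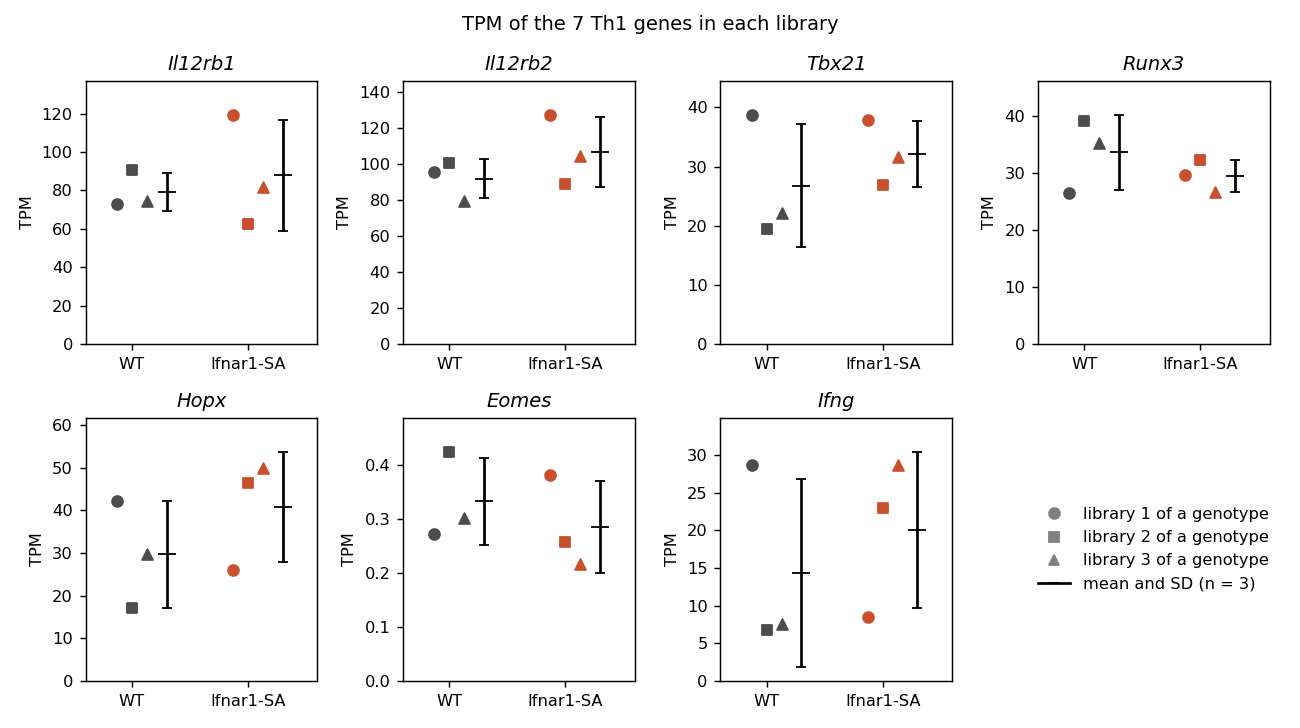
TPM (vertical axis, from 0) of the 7 genes in each library, by genotype; symbols mark library 1, 2 and 3 of a genotype and black bars the mean and SD of 3 libraries. The genotypes overlap in every panel, and Ifng falls into high (22.95 to 28.7 TPM) and low (6.80 to 8.54 TPM) libraries within each genotype.

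The receptor chains for interleukin-12 were the most abundant members. Il12rb2 (GRCm38 chromosome 6, 67291318 to 67376188, minus strand), the chain induced in Th1 cells that docks STAT4, was at 95.4, 100.5 and 79.6 TPM across WT libraries and 127.0, 88.6 and 104.5 TPM in Ifnar1-SA. Its highest library was Ifnar1-SA 1 and its lowest WT 3, with the others between. The log2 difference, Ifnar1-SA minus WT, was 0.21 with a standard error of 0.19 and a 95% interval of −0.24 to 0.65. Leaving out Ifnar1-SA 1 gave 0.074 and WT 3 0.11, and it was 0.33 without Ifnar1-SA 2. Serbp1, a gene on the opposite strand that overlaps Il12rb2, was at 70.3 to 105 TPM, and whether the quantification used strand is not given in the sources used here.

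Il12rb1 (chromosome 8, 70808449 to 70821424, plus strand), the chain shared with the interleukin-23 receptor, was at 73.1, 90.8 and 74.3 TPM across WT libraries and 119.1, 62.7 and 81.7 TPM in Ifnar1-SA. Ifnar1-SA held both the highest and the lowest library, and its SD of 28.7 TPM compared with 9.89 TPM in WT. The log2 difference was 0.10 ± 0.25 (SE), with a 95% interval of −0.49 to 0.69. Its sign turned to −0.14 without Ifnar1-SA 1 and to −0.042 without the pair of WT 2 and Ifnar1-SA 1. With array weights, set from how closely each library's values fitted the genotype means, the Il12rb1 difference was −0.036. Its highest libraries, Ifnar1-SA 1 and WT 2, were the pair with the highest median level of all genes tested. The part of that difference in the result was not tested beyond these values.

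Il12rb2 ranked first and Il12rb1 second among the members in all 6 libraries. Il12rb1 stood at 0.708 to 0.938 of the Il12rb2 level, with 0.766, 0.904 and 0.933 in WT and 0.938, 0.708 and 0.782 in Ifnar1-SA. The balance of the chains did not differ beyond the spread (difference of log2 ratios −0.10, exact permutation p = 0.7, adjusted p = 0.9 over 4 ratios). Leaving out WT 2 and Ifnar1-SA 1 made it −0.18, leaving out Ifnar1-SA 1 alone −0.21, WT 1 −0.19, WT 3 −0.050 and Ifnar1-SA 2 −0.015.

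Among the transcription factors, Tbx21 (chromosome 11, 97098071 to 97115331, minus strand), which encodes the Th1 master regulator T-bet, was at 38.7, 19.5 and 22.2 TPM across WT libraries and 37.9, 26.9 and 31.5 TPM in Ifnar1-SA. WT 1 was the highest of all 6 libraries and the other WT libraries were the lowest, with all of Ifnar1-SA between them. The log2 difference was 0.30 ± 0.28 (SE), with a 95% interval of −0.35 to 0.95. It was 0.59 without WT 1 (limma unadjusted p = 0.0269, smallest adjusted p over all alternatives 0.604), 0.11 without WT 2, and with Ifnar1-SA 1 left out it was 0.18. It was −0.010 without WT 2 and Ifnar1-SA 1.

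Runx3 (chromosome 4, 135120652 to 135177990, plus strand), the factor that acts with T-bet at Ifng and Il4, had the narrowest range from lowest to highest library among the members. It was at 26.5, 39.2 and 35.2 TPM across WT libraries and 29.7, 32.3 and 26.6 TPM in Ifnar1-SA, a range of 1.48-fold. WT held both the highest and the lowest library. The log2 difference was −0.17 ± 0.19 (SE), with a 95% interval of −0.61 to 0.28. Without WT 1 it was −0.32, and without WT 2 −0.051. Its partner subunit gene Cbfb was at 14.5 ± 3.27 TPM across WT libraries and 13.4 ± 2.14 TPM in Ifnar1-SA (SD, n = 3). Runx1, a related factor, was at 7.59 ± 1.55 and 6.01 ± 0.567 TPM. Zbtb7b, which encodes ThPOK, the CD4 lineage factor that represses Runx3, was at 5.51 ± 0.496 and 5.85 ± 0.389 TPM.

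Hopx (chromosome 5, 77086988 to 77115121, minus strand) encodes a small homeodomain protein without DNA binding of its own, known to sustain effector Th1 cells. It was at 42.2, 16.98 and 29.6 TPM across WT libraries and 25.9, 46.3 and 49.9 TPM in Ifnar1-SA. Ifnar1-SA 2 and 3 were above all WT libraries, while Ifnar1-SA 1 lay below WT 1 and WT 3. The log2 difference was 0.48 ± 0.38 (SE), with a 95% interval of −0.41 to 1.37. Without WT 1 it was 0.77 and without Ifnar1-SA 1 also 0.77, while without WT 2 it was 0.14 and without Ifnar1-SA 3 0.31.

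Eomes (chromosome 9, 118478212 to 118486132, plus strand), the T-box relative of T-bet found in CD8 T and NK cells, was near the floor. It was at 0.272, 0.424 and 0.303 TPM across WT libraries and 0.381, 0.257 and 0.217 TPM in Ifnar1-SA, with 15878 genes above it by mean level. It failed the filter of 1 TPM and was compared by an exact permutation test (two-sided p = 0.5). Tbx21 was at 46.0 to 145 times the Eomes level in a library, and the log2 ratio of the 2 paralogues was 4.32 ± 0.575 in WT and 4.68 ± 0.181 in Ifnar1-SA (SD, n = 3, exact permutation p = 0.4, adjusted p = 0.8 over 4 ratios). The difference of 0.35 became 0.67 without WT 1, 0.12 without WT 2 and 0.047 without WT 2 and Ifnar1-SA 1.

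Ifng (chromosome 10, 118441046 to 118445892, plus strand), the cytokine that defines the lineage, varied more over the libraries than any other member. It was at 28.7, 6.80 and 7.54 TPM across WT libraries and 8.54, 22.95 and 28.6 TPM in Ifnar1-SA, a range of 4.23-fold. WT 1, Ifnar1-SA 2 and Ifnar1-SA 3 were high and the other 3 libraries low, so the split ran across the genotypes. The mean was 14.4 ± 12.4 TPM across WT libraries and 20.05 ± 10.4 TPM in Ifnar1-SA (SD, n = 3). The log2 difference was 0.59 ± 0.62 (SE), with a 95% interval of −0.87 to 2.06.

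That interval holds both lower and higher levels in Ifnar1-SA. Without WT 1 the Ifng difference was 1.21 (limma unadjusted p = 0.0466), and with array weights, set from these same values, it was 1.27 (limma unadjusted p = 0.0219). The adjusted p over all genes was at least 0.435 in every alternative. Leaving out WT 2 gave 0.25, WT 3 0.31, Ifnar1-SA 3 0.27 and Ifnar1-SA 1 1.09, and the difference was 0.74 without WT 2 and Ifnar1-SA 1. The same pair left out gave 0.43 for Hopx, 0.14 for Il12rb2, −0.057 for Runx3 and −0.058 for Eomes, which was −0.053 with all libraries.

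**Figure D2:**
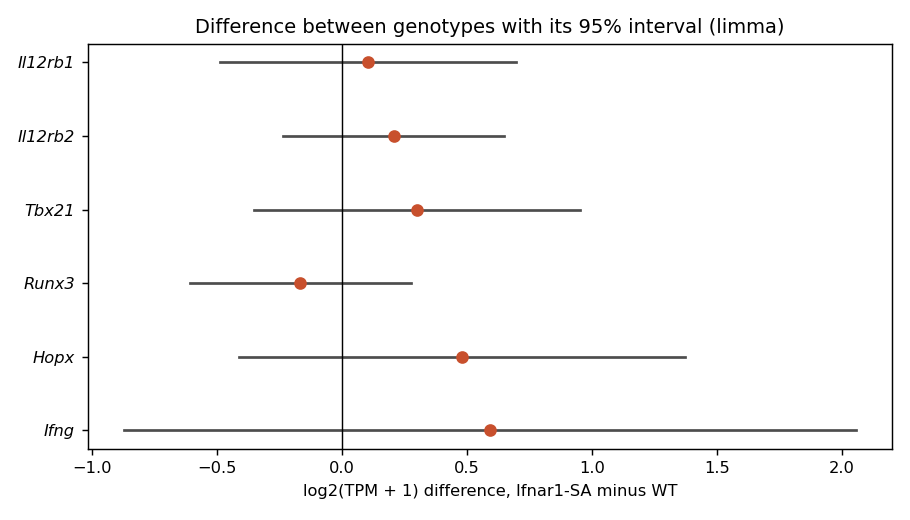
Fitted difference in log2(TPM + 1), Ifnar1-SA minus WT (horizontal axis), for the 6 genes in the fit; points are limma estimates and lines their 95% intervals from 6 libraries. Every line crosses 0, and the line for Ifng, from −0.87 to 2.06, is the widest.

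The spread between libraries of the same genotype set Ifng and Hopx apart from the receptor chain Il12rb2 and from Runx3. The within-genotype SD of log2(TPM + 1) was 0.98 for Ifng and 0.57 for Hopx, at percentiles 94.6 and 91.6 of all genes tested. Tbx21 (SD 0.40) was at percentile 83.3 and Il12rb1 (0.35) at 77.2. Runx3 and Il12rb2, each with an SD of 0.22, were at percentiles 40.1 and 39.1. The middle order of levels changed with the library: Hopx, Runx3 and Tbx21 took ranks 3 to 6 in different orders, Ifng was the fifth or the sixth, and Eomes was the seventh throughout.

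Pairs of members are described over the 6 libraries, which share their preparation and scaling, with no test. Ifng and Hopx ran together (Pearson r = 0.91, Spearman rho = 0.77), and r was 0.87 over the 4 libraries left without WT 1 and Ifnar1-SA 3. The interleukin-12 receptor chains also ran together (r = 0.85, rho = 0.77, and r = 0.60 without Ifnar1-SA 1 and 2). Tbx21 and Runx3 ran opposite (r = −0.90, rho = −0.94, and r = −0.75 without WT 1 and WT 2). Ifng and Runx3 had r = −0.79 and rho = −0.94, with r = −0.43 over the libraries left without WT 1 and Ifnar1-SA 3. Hopx and Runx3 had r = −0.76 and rho = −0.60, with r = −0.27 without WT 2 and Ifnar1-SA 3. Eomes, whose levels were all under 1 TPM, ran opposite to Hopx (r = −0.97, rho = −1, and r = −0.90 without WT 2 and Ifnar1-SA 1) and to Ifng (r = −0.85, rho = −0.77, and r = −0.77 without WT 1 and Ifnar1-SA 3). Eomes was highest in WT 2 and Ifnar1-SA 1 and lowest in Ifnar1-SA 3. So was the median level of all genes tested (9.82, 9.56 and 7.42 TPM), and its part in the r values of Eomes was not tested. Tbx21 and Ifng had r = 0.56 and rho = 0.83, and r was 0.11 without WT 1 and WT 2, so that relation rested on those libraries. Ifnar1-SA 1 shows the gap between them, with Tbx21 at 37.9 TPM and Ifng at 8.54 TPM. Ifng and Il12rb1 had r = −0.54, and the pairs not named here had r between −0.59 and 0.66.

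Genes whose levels followed a member most closely were sought among 5388 other genes averaging 10 TPM or more. For Ifng they were Hnrnpl (r = 0.99), Rpa3 (0.98), Ssbp4 (0.97), H2-T24 (0.96) and Sub1 (0.96). Hnrnpl encodes a splicing regulator, Rpa3 a subunit of replication protein A and H2-T24 a non-classical MHC class I protein. Hnrnpl moved little in size, from 63.3 to 72.1 TPM, while H2-T24 ran from 17.6 TPM in WT 2 to 32.3 TPM in WT 1. For Tbx21 they were Psma2, a proteasome subunit gene (r = 0.997), Bud31 (0.99), Tax1bp1 (0.99), the histone chaperone gene Asf1b (0.99) and Hmces (0.99). With 6 libraries high values of r are common: 156 of the 5388 genes had r over 0.9 with Tbx21 and 32 with Ifng.

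Type 2 genes were far above their Th1 counterparts in each library. Gata3, the Th2 factor that opposes T-bet, was at 143 ± 4.72 TPM across WT libraries and 148 ± 12.9 TPM in Ifnar1-SA (SD, n = 3). Tbx21 stood at 0.136 to 0.279 of the Gata3 level in WT and at 0.1996 to 0.236 in Ifnar1-SA, within the WT range. The log2 ratio was −2.44 ± 0.541 and −2.18 ± 0.116 (SD, n = 3, exact permutation p = 0.4, adjusted p = 0.8 over 4 ratios). The difference of 0.26 became 0.57 without WT 1, 0.075 without WT 2, 0.14 without WT 3 and 0.014 without the pair of WT 2 and Ifnar1-SA 1.
Il4, the signature Th2 cytokine, was at 302 ± 67.0 TPM across WT libraries and 440 ± 183 TPM in Ifnar1-SA. Ifng stood at 0.0912, 0.0296 and 0.0208 of the Il4 level in WT and 0.0220, 0.0792 and 0.0445 in Ifnar1-SA, with 1 high library in WT and overlap throughout. The log2 ratios differed by 0.10 between genotypes (exact permutation p = 0.9, adjusted p = 0.9 over 4 ratios), a difference that ran from −0.33 to 0.68 when single libraries were left out and was 0.39 without WT 2 and Ifnar1-SA 1.

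The ligands and other receptors of the pathway were low or did not pass. Of the 14 listed interleukin-12 and interleukin-18 ligands and receptors, 10 were tested, 2 of them members. Of these 10, 0 passed in either direction (limma). With an unadjusted p under 0.05 (limma) 1 was higher and 1 lower, beside 1.44% and 1.68% of all genes tested. In mean log2 value 6 of the 10 were higher and 4 lower. Their median log2 difference was 0.10, beside −0.056 over all genes tested, of which 37.1% were higher. Il12a and Il12b, the subunits of interleukin-12, were at 0.643 ± 0.317 and 0.535 ± 0.173 TPM across WT libraries and 0.425 ± 0.0893 and 0.458 ± 0.155 TPM in Ifnar1-SA. Ebi3, a subunit of interleukin-27 and interleukin-35, was at 121 ± 17.4 and 157 ± 27.4 TPM.
Il18, a cytokine that acts with interleukin-12 to raise Ifng, was at 1.54, 1.79 and 1.63 TPM across WT libraries and 3.93, 2.39 and 6.13 TPM in Ifnar1-SA, without overlap (log2 difference 0.89, limma adjusted p = 0.9997). Its receptor gene Il18r1 was at 2.42, 2.08 and 1.40 TPM across WT libraries and 1.10, 1.04 and 1.21 TPM in Ifnar1-SA, lower without overlap (log2 difference −0.47, limma adjusted p = 0.9997). Il18rap, the accessory chain, was at most 0.445 TPM.

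Of the 12 signal transducers tested from a list of 13, 0 passed in either direction (limma), with 4 higher and 8 lower and a median of −0.18. Only 1, which was lower, had an unadjusted p under 0.05 (limma), beside 1.68% of all genes tested. Stat4, the main transducer of the interleukin-12 signal, was at 14.3, 12.8 and 13.2 TPM across WT libraries and 11.45, 6.09 and 8.96 TPM in Ifnar1-SA. All WT libraries were above all Ifnar1-SA libraries (log2 difference −0.59 ± 0.22 SE, limma unadjusted p = 0.0316, adjusted p = 0.9997). Of the 12 transducers, 2 lay wholly lower and 0 wholly higher, beside 3.80% and 1.97% of all genes tested. Socs3 was the other, at 34.9, 39.5 and 36.9 TPM across WT libraries and 33.2, 34.2 and 29.8 TPM in Ifnar1-SA. The interferon-gamma receptor genes Ifngr1 (25.4 ± 4.39 and 29.1 ± 5.47 TPM) and Ifngr2 (26.1 ± 4.18 and 20.5 ± 2.99 TPM) had overlapping libraries.

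Of the 16 transcription factors and partners tested from a list of 18, including Tbx21, Runx3 and Hopx, 0 passed (limma, 0 at an unadjusted p under 0.05). With 7 higher and 9 lower, their median of −0.043 was close to that of all genes. Zbtb32, a repressor induced in activated T cells, was at 122, 61.6 and 59.6 TPM across WT libraries and 144, 107.4 and 110.2 TPM in Ifnar1-SA, with WT 1 above 2 of the Ifnar1-SA libraries. Atf3, a stress-induced factor, was at 104 ± 17.3 and 76.3 ± 21.1 TPM. Hlx, a homeobox factor that helps T-bet induce Ifng, was at 3.86, 1.61 and 1.24 TPM across WT libraries and 1.94, 3.11 and 2.49 TPM in Ifnar1-SA, and Twist1, a repressor made by repeatedly stimulated Th1 cells, was at most 0.0729 TPM.
Of 21 restrainers of the Th1 programme, 0 passed (limma), 9 were higher and 12 lower, and the median was −0.069. A single gene, which was higher, had an unadjusted p under 0.05 (limma), beside 1.44% of all genes tested. Il10 was the one with a small p, at 189 ± 47.5 TPM across WT libraries and 306 ± 45.1 TPM in Ifnar1-SA without overlap (limma adjusted p = 0.9997). Ezh2, a histone methyltransferase gene that silences Th1 loci, was at 68.0 ± 7.02 and 54.9 ± 10.5 TPM, and Smad3, a transducer of TGF-beta, at 4.64 ± 0.650 and 3.55 ± 0.702 TPM.

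Target genes of T-bet and RUNX3 had higher mean levels in Ifnar1-SA without passing the test. Of the 21 tested from a list of 24, Ifng included, 0 passed in either direction (limma). At an unadjusted p under 0.05 (limma) 4 were higher and 1 lower, beside 1.44% and 1.68% of all genes tested. Without overlap, 2 were higher and 1 lower, beside 1.97% and 3.80% of all genes tested. In mean log2 value 18 of the 21 were higher and 3 lower, beside 37.1% higher over all genes tested. Their median log2 difference was 0.53, or 0.59 above that of all genes tested. It was 0.99 above without WT 1, 0.26 above without WT 2, 0.33 above without Ifnar1-SA 3 and 0.39 above with no filter on low genes. Without WT 2 and Ifnar1-SA 1 together it was 0.63 above. This list was chosen with earlier results of these data known, so its direction is not independent evidence.
Gzma, which encodes granzyme A, was at 31.6, 33.9 and 36.3 TPM across WT libraries and 61.4, 109.0 and 86.9 TPM in Ifnar1-SA (log2 difference 1.28 ± 0.23 SE, limma adjusted p = 0.353). Cxcr6, a homing receptor gene, was at 3.62, 2.48 and 1.28 TPM across WT libraries and 7.11, 12.05 and 6.15 TPM in Ifnar1-SA (log2 difference 1.45 ± 0.33 SE, limma adjusted p = 0.825). Ccl5, a chemokine gene, was at 35.7, 30.05 and 60.8 TPM across WT libraries and 60.6, 78.3 and 143 TPM in Ifnar1-SA, with Ifnar1-SA 1 just below WT 3. Cxcr3, a receptor gene directly bound by T-bet, was at 11.1 ± 3.44 and 11.2 ± 4.12 TPM, with a log2 difference of 0.00040.
Mean log2 levels of these 21 genes were 4.91, 4.26 and 4.55 in WT and 4.83, 5.13 and 5.32 in Ifnar1-SA, which overlap. WT 1, a library with high Ifng, was the highest in WT.

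**Figure D3:**
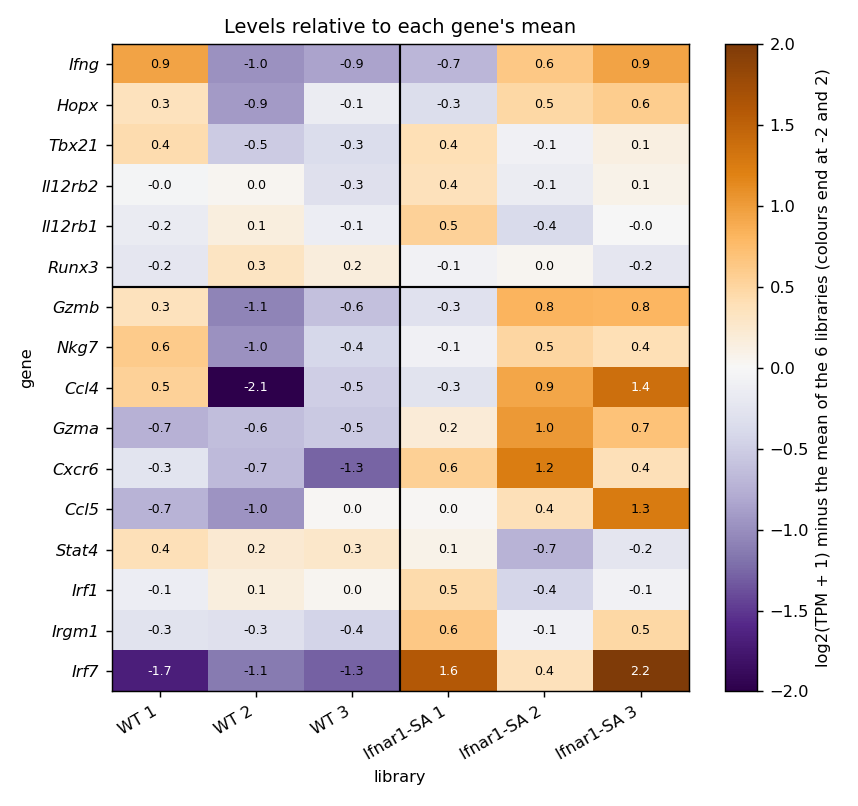
Level of each gene in each library as log2(TPM + 1) minus the gene's mean over the 6 libraries; 6 Th1 genes are above the line and 10 genes of the pathway lists, chosen after their values were seen, below it. Ifng and Hopx are below their means in WT 2, WT 3 and Ifnar1-SA 1, while Irf7 is low in all WT libraries and high in all Ifnar1-SA libraries.

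Genes that respond to interferon-gamma overlap with those of type I interferon. Of 26 tested from a list of 29, 18 were higher and 8 lower, 0 passed (limma), and the median was 0.17. An unadjusted p under 0.05 (limma) was reached by 4 higher and 1 lower, beside 1.44% and 1.68% of all genes tested. Relative to all genes tested the median was 0.23, and leaving out Ifnar1-SA 2 made it 0.35 and leaving out Ifnar1-SA 3 made it 0.14. Irgm1, an immunity-related GTPase gene, was at 60.7 ± 3.71 and 99.8 ± 24.6 TPM without overlap. Tgtp1, another such gene, was at 12.7 ± 6.59 and 27.7 ± 9.63 TPM, and Irf8, an interferon-induced factor, was lower without overlap at 71.8 ± 9.83 and 48.3 ± 11.1 TPM (limma adjusted p = 0.9997 for all 3).
For the 18 type I interferon-stimulated genes tested from a list of 22, all 18 were higher with a median of 0.99, and 0 passed (limma). The 12 with an unadjusted p under 0.05 (limma) were all higher, beside 1.44% of all genes tested. Irf7 was at 2.80 ± 0.727 TPM across WT libraries and 27.3 ± 15.4 TPM in Ifnar1-SA, Ifi27l2a at 267 ± 44.6 and 992 ± 425 TPM, and Xaf1 at 15.5 ± 3.26 and 54.1 ± 24.3 TPM, with limma adjusted p of 0.244, 0.275 and 0.5099. This list, like the others, was compiled knowing earlier results of these libraries, so its direction is not independent evidence.

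**Figure D4:**
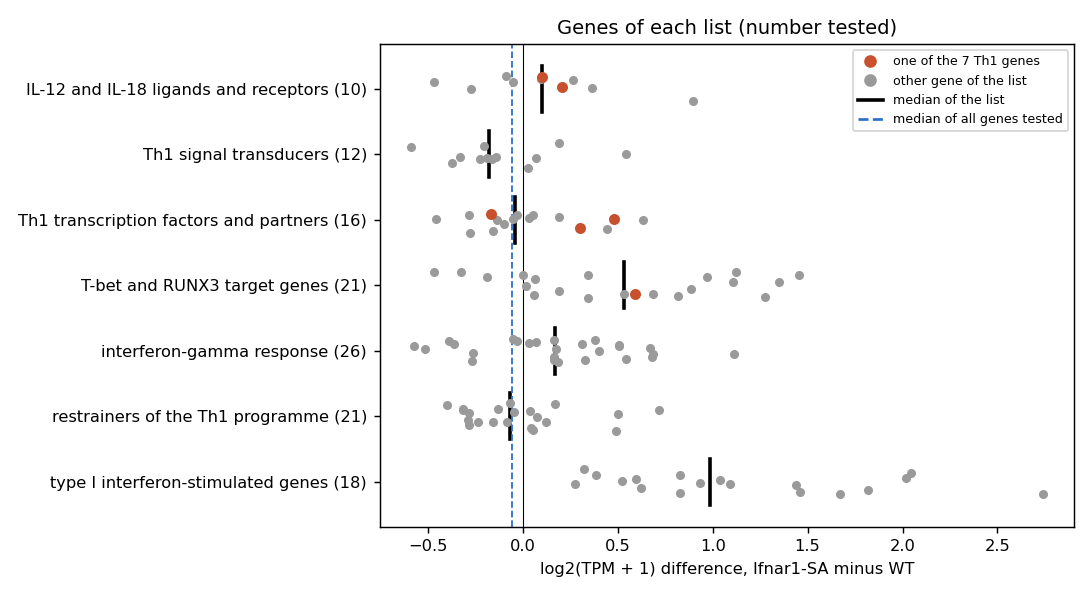
Log2(TPM + 1) difference, Ifnar1-SA minus WT (horizontal axis), of every gene tested in 7 lists; orange points are members, black bars list medians and the dashed line the median of all 12141 genes. The medians of the type I interferon list (0.99) and of the T-bet and RUNX3 targets (0.53) lie to the right of the dashed line at −0.056, while the transcription factors (−0.043) lie on it. All lists were chosen with earlier results of these data known.

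Ifng, Tbx21 and Eomes are also expressed by NK and CD8 T cells, whose markers were therefore read in the same libraries. Of 13 NK and innate lymphoid markers, 10 were under 1 TPM in every library, Ncr1 and Klrb1c were at most 0.613 and 0.839 TPM. Their summed level was 41.5 to 45.0 TPM across WT libraries and 70.8 to 121 TPM in Ifnar1-SA, of which Gzma made up 31.6 to 109 TPM. For CD8 T cells, Cd8a was at 1.55 to 4.26 TPM and Cd8b1 at 9.07 to 15.4 TPM, with sums of 11.7 to 18.1 TPM across WT libraries and 10.99 to 17.3 TPM in Ifnar1-SA. The 6 B cell markers summed to 5.62 to 13.4 and 5.59 to 10.5 TPM, and 10 macrophage and dendritic cell markers to 4.87 to 10.3 and 5.20 to 7.63 TPM. The part of these cells in the Ifng and target gene levels was not tested beyond these values.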

How the data were processed

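The authors deposited gene-level TPM. Salmon and the builds GRCm38 and mm10 are named, without roles, per the submitters' processing notes. For the annotation, the version and any filter the sources used here give nothing. TPM keeps no depth, so no counting interval could be given. Each of the 6 columns matched 1 sample title.

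Values were tested as log2(TPM + 1) with limma 3.58.1 (R 4.3.3) and an intensity trend (two-sided). Benjamini-Hochberg adjustment covered the 12141 genes averaging 1 TPM or more, with a threshold of 0.05. Fold changes on this scale understate those of low genes. Ratios and genes under the filter were compared by exact permutation tests. Gene lists were described by counts and medians. The 7 members and all lists were chosen with earlier results of these data known. Of the listed genes, 1 was not found in the table by its symbol.

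Named were the members, listed core genes of the pathway, up to 3 genes of smallest p per list, and the 5 genes most like Ifng and Tbx21 in Pearson r. Genes named beyond these (Serbp1, Klrb1c, Socs3, the Treg markers other than Foxp3 and those of the closing part) were chosen after their values were seen. One gene that this rule names is not reported here. Positions are from GENCODE M21 (GRCm38) and promoters from RefSeq (GRCm38.p6). The procedure was tested on simulated data. Python 3.11.15, pandas 2.3.3 and matplotlib 3.10.9 were used for sequences and figures.

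Alternatives were pseudocounts of 0.1 and 0.5 (none for ratios), no filter and a filter at 5 TPM, median-of-ratios and quantile scaling, leaving out ribosomal protein and small RNA genes, no trend, robust empirical Bayes, array weights, a replicate block, and leaving out or modelling libraries.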

Additional observations from a re-analysis of the deposited data

How the results depend on the processing

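For Ifng, Hopx, Il12rb2 and Runx3 the sign held in 19 of 19 alternatives, for Eomes in 14 of 14, for Tbx21 in 18 and for Il12rb1 in 16 of 19, and 0 of the 7 passed an adjusted p of 0.05 in any. Eomes, under the filter, was not fitted with the other limma options. With WT 2 and Ifnar1-SA 1 left out the difference was −0.010 for Tbx21 and −0.042 for Il12rb1, and with array weights −0.036 for Il12rb1. With single libraries left out the differences ran from −0.14 to 0.32 for Il12rb1 and the Ifng to Il4 log2 ratio from −0.33 to 0.68. The 7 genes called over all genes became 15 and 14 with pseudocounts of 0.1 and 0.5, 1 with a mean of at least 5 TPM, 12 with robust empirical Bayes, 12 with array weights, 0 without ribosomal protein and small RNA genes, 0 without WT 2 and Ifnar1-SA 1, and 15 to 28 with single libraries left out. The cause was not tested, and none of the members was among them. The median of the interleukin-12 and interleukin-18 list relative to all genes went from 0.16 to −0.0063 with no filter, and that of the transcription factors kept its sign in 14 of 19 alternatives. With 3 libraries a genotype, the 95% interval of Ifng covers −0.87 to 2.06.

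Replicate numbers are shared by the genotypes, and whether same-numbered libraries were prepared together is not stated. Their deviations correlated at −0.11, −0.11 and 0.15, and so few libraries cannot show whether they were matched. With a replicate block the count of genes called was 0, and not every library correlated best with its own number.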

Other observations

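Some effector genes outside the 7, chosen after their values were seen, had the same high and low libraries as Ifng within WT. Havcr2, which encodes the Th1 surface receptor TIM-3, was at 12.0, 3.85 and 3.54 TPM across WT libraries and 9.56, 14.0 and 12.6 TPM in Ifnar1-SA (limma unadjusted p = 0.0490, adjusted p = 0.9997). Prdm1, the gene for the effector factor BLIMP-1, was at 6.59, 2.95 and 2.78 TPM and 5.34, 6.62 and 4.88 TPM. In both, WT 1 lay among the Ifnar1-SA libraries and the other 2 WT libraries lay below all of them. The cytotoxic genes Gzmb (1165, 437 and 596 TPM in the WT libraries, 746, 1619 and 1595 TPM in Ifnar1-SA) and Nkg7 (2672, 896 and 1329 TPM, 1661, 2484 and 2337 TPM) also had their highest WT level in WT 1. Other genes of the T-bet and RUNX3 target list went another way within WT. Gzma (31.6, 33.9 and 36.3 TPM), Ctsw (13.7, 26.8 and 25.3 TPM) and Il2rb (383, 460 and 439 TPM) were lowest in WT 1. Ccl5 (35.7, 30.05 and 60.8 TPM) was highest in WT 3. How many of all genes had the WT pattern of Ifng was not counted. Irf1, a factor induced by interferons, was instead highest in Ifnar1-SA 1 and lowest in Ifnar1-SA 2, as Il12rb1 was, with 72.6, 88.3 and 82.3 TPM across WT libraries and 109.7, 59.1 and 76.0 TPM in Ifnar1-SA. Foxp3, near the floor with a mean of 0.765 TPM and under the filter of 1 TPM, was at 0.697, 0.295 and 0.276 TPM across WT libraries. It was at 0.746, 1.82 and 0.759 TPM in Ifnar1-SA, all above all WT libraries (exact permutation p = 0.1, two-sided, the smallest that 3 against 3 allows). Of all genes tested, 1.97% lay wholly higher in Ifnar1-SA, a share that leaves out Foxp3 and the other genes under the filter.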
